A study of Mus musculus with 6 samples.

Results

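The insulin-like growth factor (IGF) system was examined through 10 genes, the ligand genes Igf1 and Igf2, the receptor genes Igf1r and Igf2r, and the binding protein genes Igfbp2, Igfbp3, Igfbp4, Igfbp5, Igfbp6 and Igfbp7. They were chosen by name, with earlier results of these data known, and matched to the gene symbols of the array annotation. Each of the 10 had 1 probe, and all 10 were among the 17390 genes tested. RNA came from oligodendrocyte precursor cells of Jcl:ICR mouse forebrain, taken at E15.5 and kept with the mitogens FGF2 and PDGF-AA in both groups. The Control group (3 arrays) had received a control retrovirus and the Chd7 KD group (3 arrays) a retrovirus that knocks down Chd7, the gene of a nucleosome-remodelling ATPase, and cells were harvested 3 days later. The labels name no knockdown sequence, promoter or sorting of infected cells, and leave open if each replicate was a culture of its own. Each p-value is thus set against array-to-array spread, part or all of which may be technical.

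IGF1 and IGF2 are secreted ligands that signal through the tyrosine kinase receptor encoded by Igf1r, which feeds the PI3K and AKT pathway. The product of Igf2r binds IGF2 and carries it to lysosomes, and is also a mannose 6-phosphate receptor that sorts lysosomal enzymes. The IGF-binding proteins are secreted carriers that hold the ligands and limit or prolong their access to the receptor, and IGF1 is a known survival and differentiation signal for cells of the oligodendrocyte lineage.

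In the Chd7 KD arrays 1 of the 10 genes rose in limma, Igfbp3, and 0 fell (0 at an unadjusted p under 0.05), where 4.51% of all genes tested rose and 5.12% fell (9.64% in all), so the count of 1 in 10 is close to the share over all genes. Igfbp3 signal was 2.09-fold that of Control. Igfbp2, Igfbp4 and Igf2r read higher on all Chd7 KD arrays than on all Control arrays by 0.21, 0.41 and 0.21 on the log2 scale without passing the test, and the ligand genes read close to the detection limit in both groups.

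The 300-base windows around the annotated transcription starts of Igfbp3, Igfbp2 and Igfbp4 are shown because these were the 3 genes that rose with the replicate number fitted as a block. They come from RefSeq (GRCm38.p6), run 5′ to 3′ on the strand of the gene, and hold 250 bases before the start. The Igfbp3 and Igfbp4 windows lie inside the annotated gene spans (chr11:7206086-7215498 and chr11:99040005-99052655). No window at the upstream end of either span was searched. Capitals mark matches on either strand to any of 6 motifs. They are the TATA box, searched as TATAAA, and a related run of letters, TATATA, which can share bases with it. The GC box was searched as GGGCGG and the E box of basic helix-loop-helix factors as CACGTG. The AP-1 site was searched as TGANTCA, and a composite element of ATF and C/EBP factors as TGATGNAA.
Igfbp3 (chr11:7213874-7214173, minus strand): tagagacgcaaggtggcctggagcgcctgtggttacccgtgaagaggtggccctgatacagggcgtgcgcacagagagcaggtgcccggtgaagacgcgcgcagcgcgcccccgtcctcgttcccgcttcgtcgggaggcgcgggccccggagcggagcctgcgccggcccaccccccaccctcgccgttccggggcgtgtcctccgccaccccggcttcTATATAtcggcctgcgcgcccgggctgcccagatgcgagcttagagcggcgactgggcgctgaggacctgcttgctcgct
Igfbp2 (chr1:72824230-72824529, plus strand): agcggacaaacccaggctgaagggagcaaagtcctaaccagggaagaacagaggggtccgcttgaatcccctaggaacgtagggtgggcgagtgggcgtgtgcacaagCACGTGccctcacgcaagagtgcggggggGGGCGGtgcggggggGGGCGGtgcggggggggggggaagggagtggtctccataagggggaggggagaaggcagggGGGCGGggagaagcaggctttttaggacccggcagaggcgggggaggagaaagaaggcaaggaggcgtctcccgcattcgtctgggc
Igfbp4 (chr11:99040994-99041293, plus strand): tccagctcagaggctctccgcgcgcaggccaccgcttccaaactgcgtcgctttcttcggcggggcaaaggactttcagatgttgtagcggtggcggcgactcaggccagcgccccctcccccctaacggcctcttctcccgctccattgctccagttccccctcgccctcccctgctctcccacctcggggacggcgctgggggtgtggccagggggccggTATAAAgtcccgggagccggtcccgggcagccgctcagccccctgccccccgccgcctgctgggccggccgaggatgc
The Igfbp3 window held TATATA from 30 bases before the start and no match to the other motifs. The Igfbp4 window held TATAAA from 28 bases before the start. The Igfbp2 window held 3 GC boxes and 1 E box, and a second annotated Igfbp2 start had 1 AP-1 match and no match to the others. Over 32851 windows of the same length, 13.6% held TATAAA, 5.67% TATATA, 35.7% a GC box, 7.15% an E box, 7.81% an AP-1 match and 3.97% the composite element. The 10 genes had 14 windows, of which 2 held TATAAA, 1 TATATA, 6 a GC box, 2 an E box, 2 an AP-1 match and 0 the composite element. These matches describe letters in the windows, and no binding was measured.

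Raw spot signals had medians of 83.4 to 89.4 on the 6 arrays, and blank spots averaged 58.9 to 61.9. The detection limit was the blank mean plus 2 SD, and 87.0% to 89.8% of probes exceeded it. Intensities below are log2 values after background correction and quantile normalisation unless raw values are named. The targeted gene Chd7 read 9.44, 9.20 and 9.47 on the Control arrays (replicates 1 to 3, the order used throughout) and 8.54, 8.44 and 8.48 on the Chd7 KD arrays. All Chd7 KD arrays lay below all Control arrays (log2 fold change -0.88, SE 0.0855, adjusted p = 0.0011 in limma). Of 9 oligodendrocyte precursor markers tested, 6 fell and 0 rose (0 with an unadjusted p under 0.05), and their summed linear signal was 12956 to 15204 in Control and 9927 to 11273 in Chd7 KD. With the replicate number as a block 8 fell and 0 rose, where 7.34% of all genes fell and 7.33% rose. Of all genes tested 9.64% passed at an adjusted p below 0.05, 4.51% higher and 5.12% lower. Of those that passed, 46.8% were higher, and in the authors' processed values 32.2%. In bulk RNA, fewer cells of a type and less RNA per cell cannot be told apart.

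**Figure D1:**
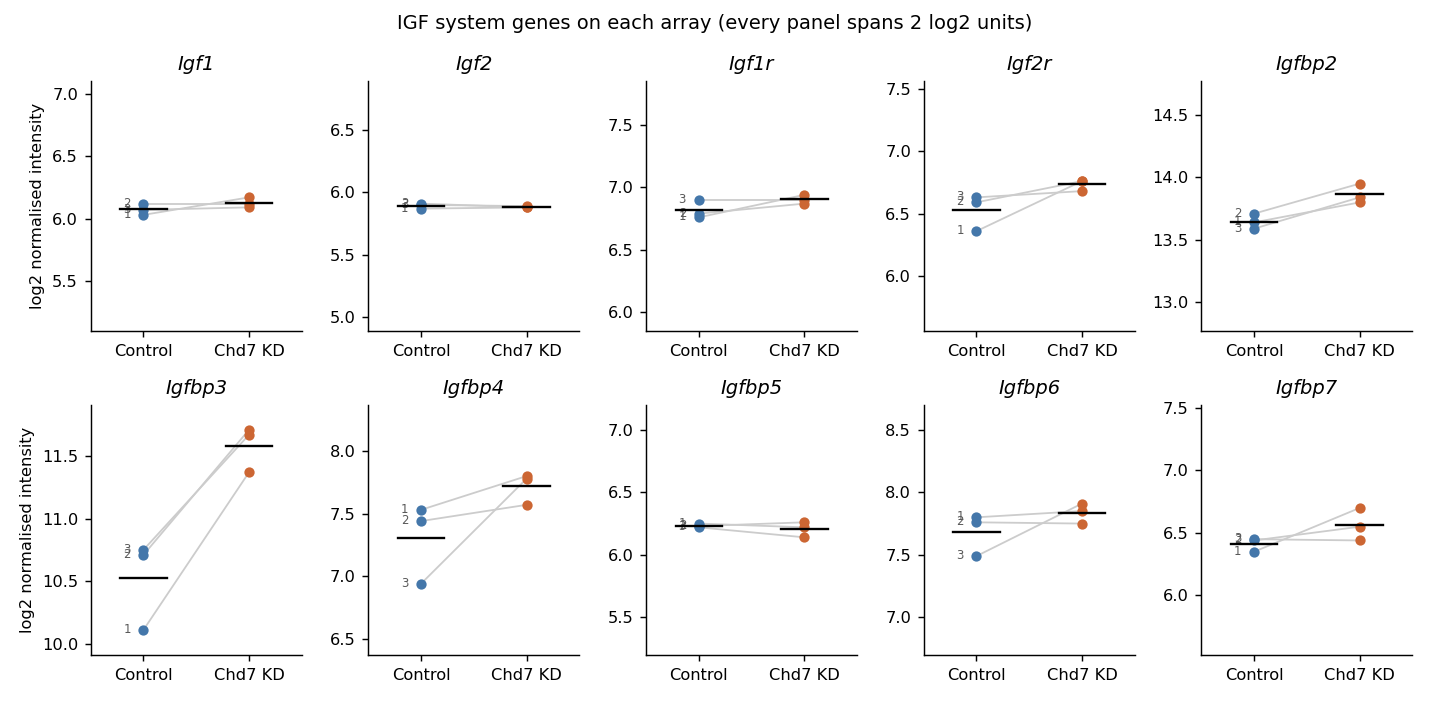
Log2 normalised intensity of each of the 10 genes on the 3 Control arrays (blue) and the 3 Chd7 KD arrays (orange), with group means as black bars and grey lines joining arrays of the same replicate number; every panel spans 2 log2 units. Igfbp3 runs from 10.11 to 10.75 in Control and from 11.37 to 11.71 in Chd7 KD, while Igf2 and Igfbp5 stay within a narrow band.

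Among the ligands, Igf1 read 6.03, 6.12 and 6.07 in Control and 6.17, 6.12 and 6.09 in Chd7 KD. Its raw signal was 1.18 to 1.31 times the detection limit, and the groups overlapped (log2 fold change 0.05, 95% interval -0.02 to 0.12, adjusted p = 0.384 in limma). The Igf2 probe gave raw signals 1.07 to 1.11 times the limit on the 6 arrays. It read 5.87, 5.91 and 5.90 in Control and 5.88, 5.88 and 5.89 in Chd7 KD. The Igf2 groups overlapped, and the interval of the difference was -0.05 to 0.03 (log2 fold change -0.01, adjusted p = 0.784 in limma). At signals this close to the blank spots, and with an offset of 50 added before the log, a change in either ligand would be compressed. In the authors' processed values, on the log2(value + 16) scale, the difference was 0.12 for Igf1 and -0.02 for Igf2.

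Igf1 in brain tissue is known from microglia, and Igf2 from choroid plexus and meninges, so markers of these cells were read beside them. Of 8 microglia markers tested none passed in limma (0 with an unadjusted p under 0.05), their summed signal was 532 to 550 in Control and 546 to 557 in Chd7 KD, and Itgam and Tmem119 were below the detection limit on more than 3 arrays. Of 4 choroid plexus markers tested 1 rose and 0 fell (2 higher and 0 lower at an unadjusted p under 0.05), with a summed signal of 300 to 346 in Control and 328 to 385 in Chd7 KD. The one that rose was Ttr, the transthyretin gene (5.82, 5.92 and 6.14 against 6.5, 6.36 and 6.74, log2 fold change 0.57, SE 0.101, adjusted p = 0.00965), while Kl and Clic6 were not tested because they lay below the limit. These sums include the offset that was added to every gene before the log. For markers near the detection limit the offset makes up most of the reading, so a change would be compressed. Close sums thus do not show that the content of these cells was unchanged. The part of these cells in the values of the IGF genes was not tested.

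Of the receptors, Igf1r read 6.76, 6.79 and 6.90 in Control and 6.94, 6.87 and 6.90 in Chd7 KD. The groups overlapped, and the interval ran from -0.03 to 0.21 (log2 fold change 0.09, SE 0.0524, adjusted p = 0.357 in limma). Igf2r read 6.36, 6.59 and 6.63 in Control and 6.76, 6.76 and 6.68 in Chd7 KD. Here the groups did not overlap, and Control replicate 1 was the lowest array. The log2 fold change of Igf2r was 0.21 (SE 0.0682, 95% interval 0.05 to 0.36), which did not pass over all genes (adjusted p = 0.0916 in limma). Without Control replicate 1 it was 0.13 (adjusted p = 0.152), over 1.5 times smaller. With an offset of 16 in place of 50 it was 0.32 (adjusted p = 0.0955). Raw signals were 1.85 to 2.18 times the detection limit for Igf1r and 1.44 to 1.94 times for Igf2r.

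Igfbp3, which encodes the main IGF carrier of blood plasma, had raw spot signals of 1037, 1734 and 1792 on the Control arrays and of 2905, 3003 and 3423 on the Chd7 KD arrays. The lowest Chd7 KD array lay above the highest Control array, and Control replicate 1 stood below the other Control arrays. After normalisation the log2 values were 10.11, 10.71 and 10.75 against 11.37, 11.71 and 11.67. Control averaged 10.52 ± 0.358 (SD, n = 3) and Chd7 KD averaged 11.58 ± 0.183 (SD, n = 3). The difference was 1.07 (log2; SE 0.167, 95% interval 0.69 to 1.44, adjusted p = 0.0058 in limma). Between arrays of the same replicate number the difference was 1.27, 1.0 and 0.93, so it was positive in 3 of 3. The rise passed with each of the 6 arrays left out in turn, with log2 fold changes of 0.86 without Control replicate 1 to 1.18 without Control replicate 3 (adjusted p up to 0.0273). In the authors' processed values Igfbp3 rose as well (793, 1254 and 1338 against 2081, 2472 and 2339, 1.05 on the log2(value + 16) scale, adjusted p = 0.0354 in limma).

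The file headers give a scanner gain slope for each array, and the arrays were split here into 2 sets at the middle of its range. One set held Control replicates 1 and 2 with Chd7 KD replicate 2 (slopes 0.464 to 0.467). The other held Control replicate 3 with Chd7 KD replicates 1 and 3 (0.478 to 0.479). The headers name no batch. With this set as a block the Igfbp3 log2 fold change was 1.04 (adjusted p = 0.0168 in limma). Within the sets, where 2 arrays stand against 1 and the lone array is assumed to vary like the others, it was 1.3 (adjusted p = 0.114) and 0.78 (adjusted p = 0.104). For a single gene an exact permutation test of 3 against 3 arrays cannot go below a two-sided p of 0.1, and Igfbp3, Igfbp2, Igfbp4 and Igf2r each reached that value.

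Igfbp2, which encodes a carrier abundant in developing brain, gave a raw signal 186 to 252 times the detection limit. It read 13.64, 13.71 and 13.59 in Control and 13.80, 13.95 and 13.84 in Chd7 KD, with no overlap. The log2 fold change of Igfbp2 was 0.21 (SE 0.0651, 95% interval 0.07 to 0.36, adjusted p = 0.0731 in limma). With the replicate number as a block it passed (SE 0.0586, adjusted p = 0.0384), and the difference was positive in 3 of 3 numbered pairs. Astrocytes are a known source of Igfbp2, and of 9 astrocyte markers tested 0 rose and 1 fell in limma (1 higher and 2 lower at an unadjusted p under 0.05). In the blocked fit, in which Igfbp2 passed, 1 astrocyte marker rose, the connexin 43 gene Gja1 (0.44, adjusted p = 0.0103), and 2 fell, the glutamate transporter gene Slc1a2 (-0.47, adjusted p = 0.0178) and Sox9 (-0.50, adjusted p = 0.000509). The part of astrocytes in the Igfbp2 value was not tested. The summed signal of the 9 markers was 15065 to 15544 in Control and 14806 to 15504 in Chd7 KD. Bright markers such as Aldoc and Slc1a3 (12.85 and 11.55 in Control) weigh most in this sum. Close sums thus do not show that astrocyte content was unchanged.

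Igfbp4, whose product is a carrier that the protease PAPP-A cuts to release IGF, read 7.53, 7.44 and 6.94 in Control and 7.80, 7.57 and 7.78 in Chd7 KD. The groups did not overlap, and Control replicate 3 was the lowest array. The log2 fold change of Igfbp4 was 0.41 (SE 0.141, 95% interval 0.10 to 0.73, adjusted p = 0.103 in limma). With the replicate block Igfbp4 passed (SE 0.114, adjusted p = 0.0401), but the differences of the numbered pairs were unequal, at 0.27, 0.13 and 0.84. The value depended on Control replicate 3, without which it was 0.23 (adjusted p = 0.152), and it passed without Control replicate 1 (0.53, adjusted p = 0.0494). Within the scanner sets it was 0.09 (adjusted p = 0.80) for the set of Control replicates 1 and 2, and 0.85 (adjusted p = 0.0422) for the set that holds Control replicate 3.

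None of the other binding protein genes, Igfbp5, Igfbp6 and Igfbp7, passed in limma (0 lower and 1 higher at an unadjusted p under 0.05). Igfbp6, encoding a carrier that prefers IGF2, read 7.80, 7.76 and 7.49 in Control and 7.85, 7.75 and 7.91 in Chd7 KD, and the groups overlapped (log2 fold change 0.15, 95% interval -0.05 to 0.35, adjusted p = 0.331 in limma). As for Igfbp4, Control replicate 3 was the lowest array for Igfbp6, and without it the value was 0.057 (adjusted p = 0.686). Igfbp7, a related secreted protein gene with low affinity for IGF, read 6.35, 6.44 and 6.45 in Control and 6.70, 6.55 and 6.44 in Chd7 KD. The Igfbp7 groups overlapped (log2 fold change 0.15, SE 0.0653, adjusted p = 0.201 in limma). Without Chd7 KD replicate 1 the Igfbp7 value was 0.076 (adjusted p = 0.474), and with an offset of 16 it was 0.24 (adjusted p = 0.196). Igfbp5, which encodes a matrix-bound carrier, read 6.25, 6.23 and 6.22 in Control and 6.22, 6.26 and 6.14 in Chd7 KD, the only binding protein gene of the 6 with a negative value (-0.02, 95% interval -0.11 to 0.06, adjusted p = 0.726 in limma).

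**Figure D2:**
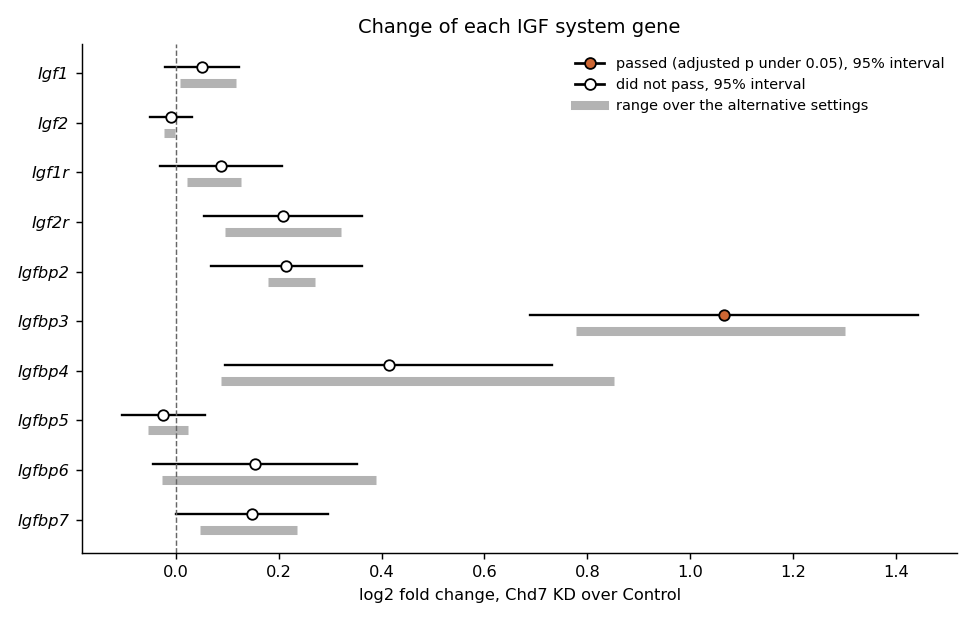
Log2 fold change of Chd7 KD over Control for each gene, as a point with its 95% interval from limma (filled where the adjusted p was below 0.05), above a grey bar for the range over the alternative settings. Igfbp3 stands at 1.07 and is the only filled point, and the grey bars of Igfbp5 and Igfbp6 cross 0.

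Over the 10 genes the median log2 fold change was 0.15, against 0.0013 over all genes. Of the 10, 8 had positive values, where 51.0% of all genes did. The groups did not overlap for 4 of the 10, all higher in Chd7 KD, against 29.9% of all genes, 14.6% higher and 15.2% lower. In limma 1 rose and 0 fell (5 higher and 0 lower at an unadjusted p under 0.05), and with the replicate block 3 rose and 0 fell, where 7.33% of all genes rose and 7.34% fell. With 10 genes these shares rest on a few values each. The genes were also chosen with earlier results of these data known, so the shares are a description and not a test of the set.

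Igfbp1 and Igfbp3 are next to each other in RefSeq (GRCm38.p6), as are Igfbp2 and Igfbp5. Igfbp1, whose product is a carrier regulated by insulin, read 5.96, 6.08 and 6.02 in Control and 6.12, 6.09 and 6.08 in Chd7 KD, near the detection limit (log2 fold change 0.07, SE 0.0308, adjusted p = 0.173 in limma). The protein-coding gene on the other side of Igfbp3, Tns3, read 0.02 (adjusted p = 0.525). Beside Igfbp4 lies Top2a, the topoisomerase gene of dividing cells, which fell by 0.37 on the log2 scale (SE 0.0658, adjusted p = 0.0102). Beside Igfbp7, Noa1 and Adgrl3 read -0.20 (adjusted p = 0.0603 in limma) and -0.21 (adjusted p = 0.073). Spryd3, beside Igfbp6, read 0.14 (adjusted p = 0.073). No further tested neighbour of the IGF genes passed. The differences between neighbours were not tested.

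Across the 6 arrays the genes whose log2 values followed Igfbp3 most closely, out of 17389, were Ncaph2, a condensin II subunit gene (Pearson r = 0.9962), Cyp1a2, a cytochrome P450 gene (0.9957), Rnf130 (0.9948), Tmem70, which acts in assembly of the mitochondrial ATP synthase (0.9937), and Rhobtb2 (0.9924). All 5 had their lowest value in Control replicate 1, as Igfbp3 did, and read higher in all Chd7 KD arrays. Ncaph2 (log2 fold change 0.31, adjusted p = 0.0229), Rnf130 (0.37, adjusted p = 0.0171) and Rhobtb2 (0.14, adjusted p = 0.0206) rose, while Cyp1a2 (0.07, adjusted p = 0.103) and Tmem70 (0.21, adjusted p = 0.10) did not pass. The points share the group difference, so these correlations are a description over 6 arrays and carry no test.

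Of 7 other carrier and protease genes tested 1 rose and 0 fell in limma (3 higher and 0 lower at an unadjusted p under 0.05). Among all genes tested 4.51% rose and 5.12% fell. Stc1, which encodes stanniocalcin 1, an inhibitor of PAPP-A, read 6.37, 6.39 and 6.41 in Control and 7.33, 7.20 and 7.04 in Chd7 KD. The Stc1 groups were well apart, by 0.80 on the log2 scale (SE 0.0691, adjusted p = 0.000685 in limma). Stc1 also passed with each array left out in turn, at adjusted p values of 0.00453 or less. Its relative Stc2, also a PAPP-A inhibitor, read 6.19, 6.14 and 6.14 against 6.34, 6.45 and 6.19 (log2 fold change 0.17, adjusted p = 0.103). Fitting the replicate block brought Stc2 past the threshold (0.0393), and without Chd7 KD replicate 2 its value was 0.11 (adjusted p = 0.253). Igfbpl1, an IGF-binding protein-like gene, read 0.05 (adjusted p = 0.490). Htra1, a protease gene, read -0.05 (adjusted p = 0.802), Igfals, the gene of the subunit that stabilises the IGF complex in blood, -0.0023 (0.976), and Pappa2 0.0062 (0.887). Pappa was below the detection limit and not tested.

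Of 15 genes of the insulin receptor family and its adaptors 1 rose and 0 fell in limma (1 higher and 2 lower at an unadjusted p under 0.05). The shares over all genes tested were 4.51% and 5.12%. Irs2, which encodes a docking protein of the insulin and IGF receptors, read 8.98, 8.64 and 8.95 in Control and 9.41, 9.14 and 9.22 in Chd7 KD. Its log2 fold change was 0.40 (SE 0.108) at the edge of the threshold (adjusted p = 0.0498), and the call was lost when any array but Control replicate 1 was left out (at most 0.156), with the scanner set as a block (0.0988) and in the authors' processed values (0.164). The adaptor gene Shc1 read 0.15 (adjusted p = 0.242) and passed with the replicate block (0.0102). Without Control replicate 3 the Shc1 value was 0.09 (adjusted p = 0.512), and without Chd7 KD replicate 1 it was 0.095 (adjusted p = 0.535). The phosphatase gene Ptpn11 read -0.09 (adjusted p = 0.127) and passed with the block (0.0345), and Sh2b2, an adaptor gene, read -0.07 (adjusted p = 0.139). Insr and Irs1, the genes of the insulin receptor and of the other main docking protein, read 5.79 and 5.76 in Control and 5.79 and 5.77 in Chd7 KD. These readings lay at the detection limit, which Insr exceeded on 2 of 3 Control arrays and Irs1 on 2 of 3 arrays of each group.

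Of 21 PI3K, AKT and mTOR genes tested 1 rose and 2 fell in limma (2 higher and 5 lower at an unadjusted p under 0.05). Their median was -0.02, and over all genes tested 4.51% rose and 5.12% fell. Phlda3, whose product competes with AKT for membrane lipids, rose from 9.45, 9.61 and 9.40 to 10.19, 10.15 and 10.03 (log2 fold change 0.64, SE 0.0826, adjusted p = 0.00289 in limma). Gsk3b, the gene of a kinase that AKT inhibits, fell by 0.40 (SE 0.0665, adjusted p = 0.00768). Pik3r1, which encodes the p85 alpha regulatory subunit of PI3K, fell by 0.22 (SE 0.0509, adjusted p = 0.0268), and this was lost when any array but Control replicate 1 was left out (at most 0.102). Eif4ebp2, a translation repressor gene, read -0.28 (adjusted p = 0.0526), and with the replicate block it passed (0.016), as part of 1 that rose and 4 that fell.

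FoxO transcription factors are held in the cytoplasm when AKT is active, and of 16 tested genes of these factors and their targets 0 rose and 3 fell in limma (3 higher and 5 lower at an unadjusted p under 0.05). Over all genes tested 4.51% rose and 5.12% fell. Ccng2, the gene of cyclin G2, read 8.51, 8.51 and 8.49 in Control and 7.83, 7.90 and 7.77 in Chd7 KD (log2 fold change -0.67, SE 0.0605, adjusted p = 0.000801). Pik3ip1, a PI3K inhibitor gene, fell by 0.29 (adjusted p = 0.0321), and the sestrin gene Sesn3 fell by 0.22 (adjusted p = 0.0378), but both calls were lost when Control replicate 2 or 3 or Chd7 KD replicate 1 or 3 was left out (at most 0.118 and 0.13), and that of Sesn3 also without Chd7 KD replicate 2. Foxo6 read 0.13 (adjusted p = 0.0798) and Foxo1 0.09 (adjusted p = 0.184). With the block 2 rose, among them Foxo6 (adjusted p = 0.0372), and 4 fell, against 7.33% and 7.34% of all genes.

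Igf2 and Igf2r are imprinted, and of 16 other imprinted genes tested 1 rose and 1 fell in limma (1 higher and 2 lower at an unadjusted p under 0.05). The shares over all genes tested were 4.51% and 5.12%. Cdkn1c, the gene of the cell cycle inhibitor p57, read 7.92, 7.58 and 7.58 in Control and 6.74, 6.78 and 6.78 in Chd7 KD (log2 fold change -0.93, SE 0.0891, adjusted p = 0.00104 in limma). H19, a noncoding RNA gene that shares its control region with Igf2, read 5.88, 5.85 and 5.83 in Control and 6.01, 5.99 and 5.93 in Chd7 KD. It rose by 0.12 on the log2 scale (SE 0.0242, adjusted p = 0.0164), close to the detection limit, and was lost with median scaling (0.0584) and without Control replicate 2 or 3 or Chd7 KD replicate 1 or 2 (at most 0.0643). Nnat, the neuronatin gene, read 9.36, 9.27 and 9.10 in Control and 8.79, 7.62 and 8.86 in Chd7 KD, where replicate 2 was far below the others (log2 fold change -0.82, SE 0.277, adjusted p = 0.101). With the replicate block Nnat passed (0.0273), and without Chd7 KD replicate 2 it was smaller, at -0.42, and passed (0.0495). Sgce, the epsilon-sarcoglycan gene, read -0.17 (adjusted p = 0.212).

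Of the genes of the 3 IGF2 mRNA-binding proteins, 0 rose and 1 fell in limma (0 higher and 1 lower at an unadjusted p under 0.05), where 4.51% of all genes rose and 5.12% fell. Igf2bp3 read 8.67, 8.69 and 8.65 in Control and 8.21, 8.30 and 8.20 in Chd7 KD, lower by a log2 value of -0.43 (SE 0.0617, adjusted p = 0.00435). Igf2bp1 and Igf2bp2 read 5.85 and 5.79 in Control and 5.87 and 5.81 in Chd7 KD, near the detection limit.

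**Figure D3:**
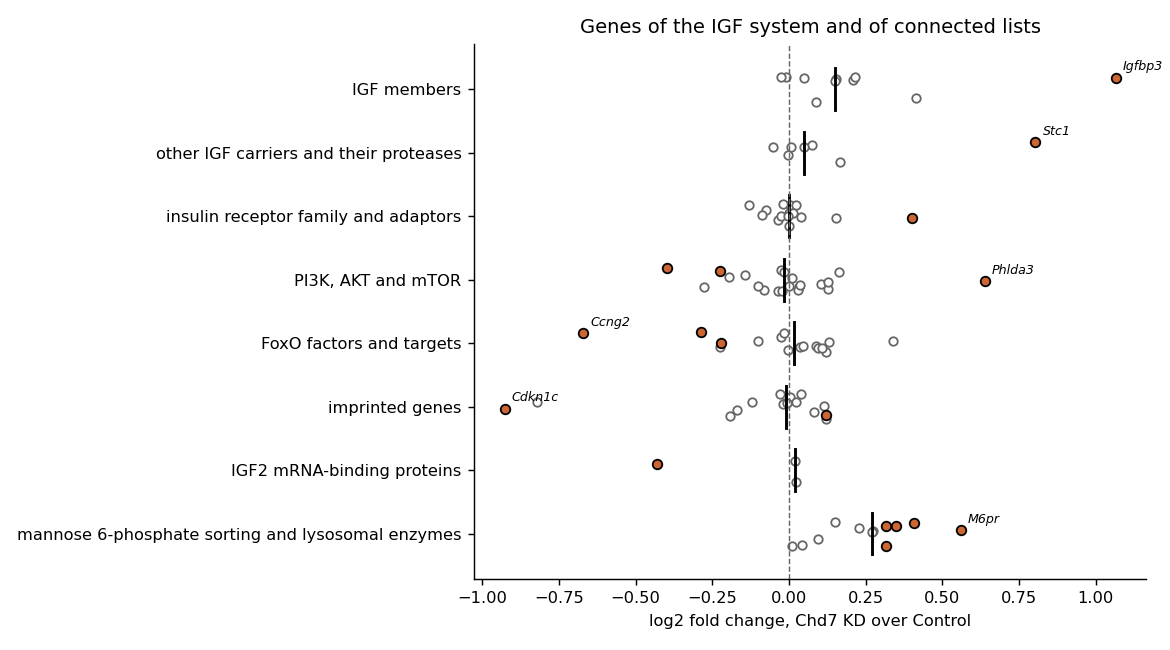
Log2 fold change of Chd7 KD over Control for the tested genes of each list, with filled points for genes past an adjusted p of 0.05 in limma, open points for the others, a black line at each list's median and names for called genes beyond 0.5. The mannose 6-phosphate and lysosomal list is shifted to the right with a median of 0.27, and the insulin receptor list has a median of 6e-04.

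Igf2r shares the sorting of lysosomal enzymes with M6pr, the gene of the cation-dependent mannose 6-phosphate receptor. Of 12 tested genes of this sorting pathway and of lysosomal proteins, 5 rose and 0 fell in limma (8 higher and 0 lower at an unadjusted p under 0.05), and 12 of 12 had positive values. Over all genes tested 4.51% rose, and 51.0% had positive values. The list was chosen with earlier results of these data known. The median log2 fold change was 0.27, against 0.0013 over all genes. M6pr read 9.17, 9.41 and 9.16 in Control and 9.94, 9.84 and 9.64 in Chd7 KD, without overlap (log2 fold change 0.56, SE 0.102, adjusted p = 0.011). Nagpa, the gene of the enzyme that uncovers the mannose 6-phosphate tag, rose by 0.32 (adjusted p = 0.0131), while Gnptab and Gnptg, which encode the enzyme that adds the tag, read 0.10 and 0.04. The cathepsin genes Ctsb and Ctsd rose by 0.41 (adjusted p = 0.00924) and 0.35 (adjusted p = 0.0254), and the lysosomal membrane protein gene Lamp1 by 0.32 (adjusted p = 0.0485). Lamp1 lost the call when any array but Control replicate 1 was left out (at most 0.148) and with the scanner set as a block (0.103). Ctsd lost it without Control replicate 2 or 3 or Chd7 KD replicate 1 or 2 (at most 0.0973). Lamp2 read 0.01, and -0.03 in the authors' processed values, where 12 of 12 positive thus did not hold. The number that rose was 2 with median scaling and 1 in the authors' processed values. It was also 2 without Control replicate 2, and 3 without Control replicate 3, Chd7 KD replicate 1 or Chd7 KD replicate 2. With the scanner set as a block 4 rose, and with the replicate block 6, where 7.33% of all genes rose. Lysosomal genes are high in microglia, whose 8 tested markers are given above.

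**Figure D4:**
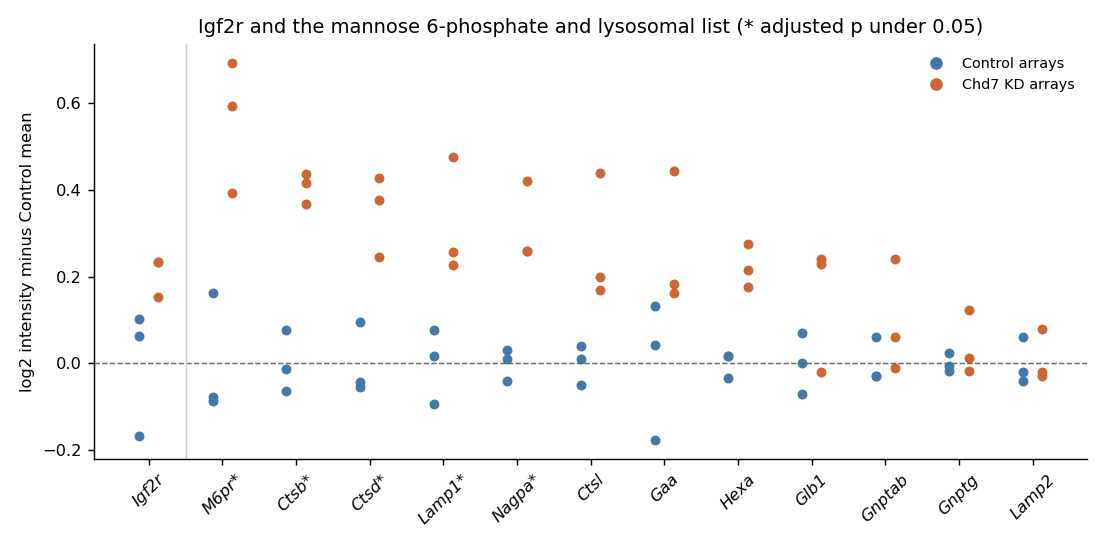
Log2 intensity of Igf2r and of the 12 genes of the mannose 6-phosphate and lysosomal list on each array, less the mean of the 3 Control arrays, with Control in blue, Chd7 KD in orange and an asterisk at an adjusted p below 0.05 in limma. The Chd7 KD points of M6pr, Ctsb, Ctsd, Lamp1 and Nagpa lie above all Control points, while those of Lamp2 and Gnptg overlap them.

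Over all 101 genes of these lists, of which 89 were tested, 9 rose, 7 fell and 73 did not pass, where 4.51% of all genes rose and 5.12% fell. With the replicate block 14 rose and 12 fell, against 7.33% and 7.34% of all genes. Endothelial cells, pericytes and meningeal fibroblasts express several IGF-binding proteins. Of 5 endothelial markers tested none passed in limma (0 with an unadjusted p under 0.05), with a summed signal of 345 to 357 in Control and 341 to 368 in Chd7 KD, and Pecam1, Cldn5 and Tek were below the detection limit. Of 10 pericyte and meningeal markers 0 rose and 1 fell in limma (1 higher and 1 lower at an unadjusted p under 0.05). The one that fell was Cspg4, which is also a precursor marker, and the summed signal was 663 to 676 in Control and 634 to 646 in Chd7 KD. Of 8 neuron markers 0 rose and 2 fell in limma (0 higher and 2 lower at an unadjusted p under 0.05), with 1386 to 1563 in Control and 1097 to 1328 in Chd7 KD. With the replicate block 1 neuron marker rose and 3 fell. The endothelial, pericyte, meningeal and neuron sums also include the offset for every gene, which compresses changes in dim markers. Close sums thus do not show that the content of such cells was unchanged. The part of other cell types in the Igfbp3 value was not tested beyond these readings.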

How the data were processed

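Per the labels' protocols, RNA from an RNeasy column was amplified to amino allyl aRNA, coupled to Cy5 and put on TORAY arrays. Each spot's deposited intensity (its median at 635 nm) combines 3 scanner gains by a least squares fit, per the file headers. The authors' processed intensity values were set against it: each column was linear in the spot signal (zero at about the blank mean), had a median of 25 and left 1717 to 2016 probes without a value. No source states this scale, and the values showed no log, gene centring or direction.

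Spot signals were corrected with normexp (offset 50, no local background), quantile normalised and averaged per probe as log2 values in limma 3.58.1 (R 4.3.3). Of 23473 probes, 20690 had 1 gene symbol, and 20957 were tested, being above the blank mean plus 2 SD on at least 3 of 6 arrays. Of several probes the brightest stood for a gene. Groups were compared with lmFit and eBayes (trend, two-sided) with Benjamini-Hochberg adjustment over 17390 genes. The authors' values were tested as log2(value + 16). The procedure was also run on simulated data with independent noise on each array. That simulation held no replicate pairing and no scanner sets, so it does not bear on how these affect the calls. Figures used matplotlib 3.10.9.

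Both groups carry the numbers 1 to 3 in the labels. Samples of equal number deviated together (r = 0.36, 0.38 and 0.23 after removing each group's mean), so the number was taken to pair them, as inferred from the data. A blocked fit is printed beside a result only if the call differs. The members, lists and tests were chosen with earlier results of these data known. Named were the 10 genes, Chd7, of each list those that passed and the up to 4 with the smallest p, some of the neighbours, and the 5 genes most like Igfbp3. Other list members were named after their values were seen. List genes without a probe symbol were not analysed here.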

Additional observations from a re-analysis of the deposited data

How the results depend on the processing

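The number of arrays limits every value, and the signal of Igf1, Igf2, Igf1r, Igf2r, Igfbp5 and Igfbp7 over the blank spots limits theirs. Igfbp3 kept its direction under 22 of 22 alternatives and failed the threshold only within the scanner sets. Each IGF gene kept its sign under all alternatives, except Igfbp5 (0.024 within the set of Control replicates 1 and 2, and -0.054 to 0.0089 when single arrays were left out, positive without Chd7 KD replicate 3) and Igfbp6 (-0.027 within that same set). Of values that did not pass, leaving out Control replicate 1 also moved Igf1 to 0.028, Igfbp1 to 0.046 and Sgce to -0.11. Igf2bp1 read -0.0012 within the other set. Chd7 lost its call within the sets (-0.88, adjusted p = 0.095, and -0.95, adjusted p = 0.0542 in limma). Of 836 values of the 38 named genes beside Chd7, 714 kept direction and side of the threshold, 95 lost the call, 23 gained it and 4 turned sign; the cause was not tested.

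Of the 10 IGF genes 2 rose without the variance trend, 3 with the replicate block, 3 at a threshold of 0.1, 0 within the set of Control replicates 1 and 2, and 1 to 2 when single arrays were left out. Over all genes the numbers higher and lower were 785 and 891 in the fit as reported. The authors' values gave 329 and 694 (32.2% higher, against 46.8%), the replicate block 1275 and 1276, and a threshold of 0.1 gave 1282 and 1408. Within the scanner sets they were 28 and 19, and 10 and 30. Without both arrays numbered 1, an alternative chosen after seeing the data, they were 379 and 423, and when single arrays were left out 361 to 679 and 399 to 772. Of the connected lists 4 rose with median scaling, as with the authors' values (4), 14 rose and 12 fell with the block, 1 rose and 1 fell in the first set, 0 and 1 in the second, 5 and 4 without both arrays numbered 1, and 5 to 10 and 4 to 7 without single arrays. Of the lysosomal list 2 rose with median scaling, 1 in the authors' values, 0 in either set, 3 without both arrays numbered 1 and 2 to 5 without single arrays. No other IGF gene changed its call with the replicate block than Igfbp2 and Igfbp4.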
